A study of Homo sapiens with 4 samples.

Results

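Keratins and vimentin are intermediate filament proteins, and 9 of their genes were followed here across 4 gene expression arrays: KRT8, KRT18, KRT7 and KRT19 of simple epithelium, KRT5 and KRT14 of basal epithelium, KRT80, the hair keratin gene KRT81, and VIM, which encodes vimentin. The 9 genes were chosen with earlier results of these data known. Within that choice, members were taken as all probe sets whose platform annotation gave a single gene symbol from this set, whatever their values. This found 13 probe sets of 8 genes, among 19775 genes with such a probe set in all. KRT81 had no such probe set and was not analysed here. The arrays were Affymetrix 1-colour arrays, on which a probe set is a group of short probes for a transcript.

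The 4 groups were NCI-H358 cells with a CHST11 vector, NCI-H358 cells with an empty vector, A549 cells with a CHST11 vector and A549 cells with an empty vector, with 1 array in each. NCI-H358 comes from a human bronchioloalveolar carcinoma and A549 from a human lung adenocarcinoma. CHST11 encodes a Golgi enzyme that sulfates chondroitin chains, and the design asked what its over-expression did to gene expression in these lines. All 4 cultures were stably transduced, antibiotic-selected lines, so the empty vector cells had been through transduction and selection as well.

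Intermediate filaments are assembled from pairs of chains. Keratins pair a type I chain with a type II chain, so that KRT8 (type II) with KRT18 (type I) makes the basic filament of simple epithelium, to which KRT7 and KRT19 are added in ducts and airways, whereas KRT5 with KRT14 makes the filament of basal cells. Vimentin forms filaments of a single chain, is typical of mesenchymal cells, and is also made by many carcinoma lines in culture. In the lung, KRT7, KRT8, KRT18 and KRT19 are the usual keratins of alveolar and bronchial epithelium and of adenocarcinomas.

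The deposited values were MAS5 signals on a linear scale. A signal of 27, the 60th percentile of all values, was used as the filter for a measured gene, and values under 16.14, the 50th percentile, were raised to that floor before log2 was taken. The median signal was 15.9 to 16.31 on the 4 arrays. The CHST11 probe set 219634_at gave 1058 with CHST11 and 220.1 with the empty vector in NCI-H358, and 343.5 with CHST11 and 129 with the empty vector in A549, while the other 2 CHST11 probe sets had log2 ratios between -0.16 and 0.14. Differences between the cell lines were fitted with limma on all 4 arrays with a term for the vector. With 1 residual degree of freedom for each gene, the error of that fit was what the lines did not share in their response to the vector. Its p-values therefore measured the spread among these arrays, not the spread between separate cultures of a line.

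The lines differed widely, which sets the scale for the members. Of 12271 genes tested, 64.5% passed an adjusted p of 0.05 between the lines, 33.9% higher in NCI-H358 and 30.6% lower, and in 85.6% the signals of the lines did not overlap. Of the 8 member genes with a probe set, 7 passed the filter, and 6 of the 7 passed the test, 1 higher and 5 lower in NCI-H358. A call between the lines was therefore the common outcome, and the members' share was read against it. At least 2-fold and past the test were 24.4% of all genes.

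KRT19, a type I keratin that lacks most of the tail domain of other keratins, had by far the widest gap among the 7 measured members. Its probe set 201650_at gave 1752 with CHST11 and 1690 with the empty vector in NCI-H358, against 81.96 with CHST11 and 87.64 with the empty vector in A549. The NCI-H358 arrays were high and the A549 arrays low, with no overlap, and the A549 signals still lay above the filter. The fitted log2 difference was 4.34 (SE 0.0937), a 20.3-fold higher signal in NCI-H358 (limma adjusted p = 3.09e-05), and 0.554% of the genes tested lay as far up or farther. Measured on the empty vector arrays alone the log2 difference was 4.27, and on the CHST11 arrays alone 4.42. The other KRT19 probe set, 228491_at, lay between 6.31 and 7.137 on the 4 arrays, under the floor, and gave no information on either line.

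KRT8 and KRT18, the partner chains of the simple epithelial filament, went the other way. KRT8 gave 1926 with CHST11 and 2148 with the empty vector in NCI-H358, against 5360 and 5235 in A549, in the same order. Its log2 difference was -1.38 (SE 0.098, limma adjusted p = 0.00048), so the KRT8 signal in A549 was 2.61-fold that in NCI-H358. KRT18 gave 5789 with CHST11 and 6218 with the empty vector in NCI-H358, against 13100 and 12910 in A549. For both genes the A549 arrays were high and the NCI-H358 arrays low, without overlap. The KRT18 difference was -1.12 (SE 0.0918, limma adjusted p = 0.000723), a 2.17-fold gap, so the type I and type II partners differed between the lines by similar sizes. Each gene was read by 1 probe set of the _x_at kind, 209008_x_at and 201596_x_at, a suffix that marks probes able to hybridise to other sequences. RefSeq lists 52 KRT8 pseudogenes and 68 KRT18 pseudogenes, and their share in these signals was not tested.

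KRT7, a type II keratin of glandular and transitional epithelium, was bright in both lines and differed least among the members called. Probe set 209016_s_at gave 4667 with CHST11 and 4802 with the empty vector in NCI-H358, against 6525 and 6273 in A549. The A549 arrays were higher without overlap, by a log2 difference of -0.43 (SE 0.09, limma adjusted p = 0.0125). The dimmer probe set 1558393_at, with signals between 54.7 and 62.03, had -0.16 (SE 0.096) and did not pass in a fit over probe sets (limma adjusted p = 0.207). With the median of its probe sets KRT7 had -0.11 and did not pass (limma adjusted p = 0.279). The remaining KRT7 probe sets, 1558394_s_at and 214031_s_at, reached 10.11 and 17.82 at most. As a gauge, line differences of different probe sets of a gene had an SD of 0.503 (5577 genes), which exceeds the KRT7 difference.

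KRT80, a type II keratin known from stratified and simple epithelia, was measured by 231849_at. Its signals were 369.8 with CHST11 and 319.5 with the empty vector in NCI-H358, against 674.4 and 711.6 in A549. The A549 pair lay above the NCI-H358 pair, by a log2 difference of -1.01 (SE 0.11, limma adjusted p = 0.00163), a 2.02-fold gap. The gap was -1.16 on the empty vector arrays and -0.87 on the CHST11 arrays.

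The basal keratins were dim or under the floor. KRT5 gave 30.02 with CHST11 and 26.29 with the empty vector in NCI-H358, against 32.55 and 41.92 in A549, with 3 of 4 arrays at or above the filter. Its line difference of -0.39 (SE 0.157) did not pass (limma adjusted p = 0.0838), and it ran from -0.67 on the empty vector arrays to -0.12 on the CHST11 arrays. KRT14, the partner chain of KRT5 in basal cells, had 9.278 and 9.098 in NCI-H358 and 7.411 and 7.878 in A549, below the floor on all 4 arrays. No fold is given for KRT14, because signals under the floor have no order.

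VIM was bright in both lines and lower in NCI-H358. Probe set 201426_s_at gave 2322 with CHST11 and 3019 with the empty vector in NCI-H358, against 5545 and 5517 in A549. The A549 arrays lay close together above both NCI-H358 arrays, which stood apart from each other. The log2 difference was -1.06 (SE 0.126, limma adjusted p = 0.00209), a 2.09-fold gap, of -0.87 on the empty vector arrays and -1.26 on the CHST11 arrays. The other VIM probe set, 1555938_x_at, lay between 4.735 and 6.603, under the floor. Both lines thus gave bright signals for the simple keratins and for vimentin on the same arrays. In such bulk samples, fewer cells that express a gene and less RNA per cell cannot be told apart.

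**Figure D1:**
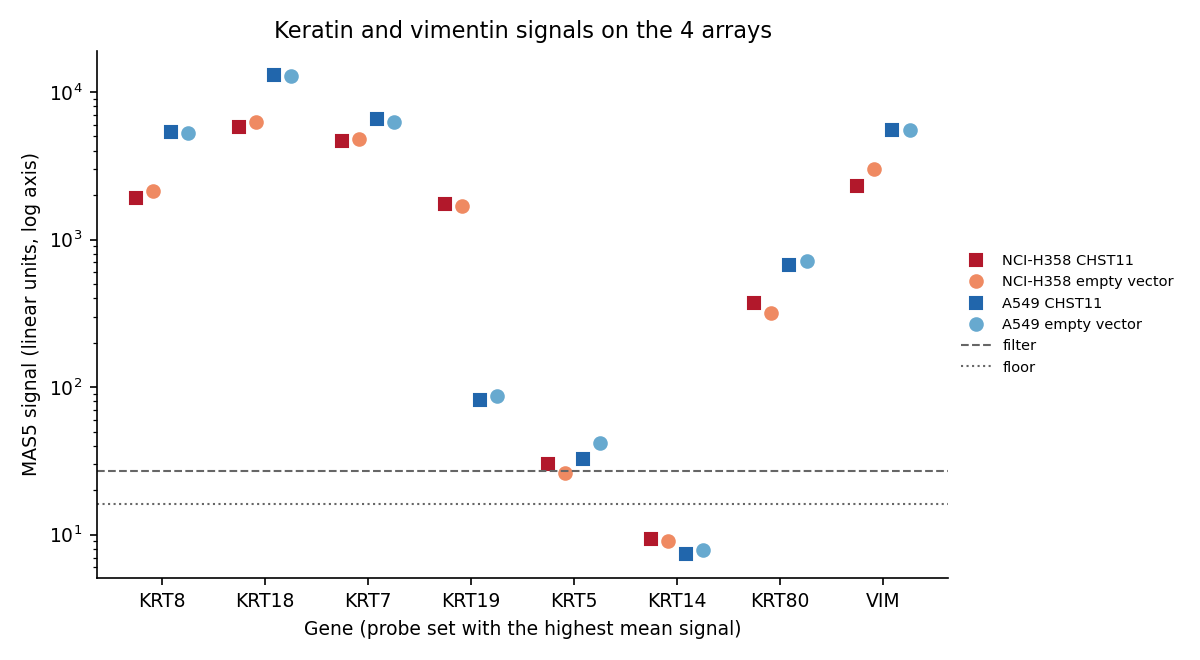
MAS5 signals (linear units on a log axis) of the 8 member genes with a probe set, each by its brightest probe set, with 1 point for each of the 4 arrays, NCI-H358 left of A549 and CHST11 left of the empty vector. KRT19 sits at 1752 and 1690 in NCI-H358 and at 81.96 and 87.64 in A549, KRT5 lies near the filter at 27 (dashed), and KRT14 lies under the floor at 16.14 (dotted).

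**Figure D2:**
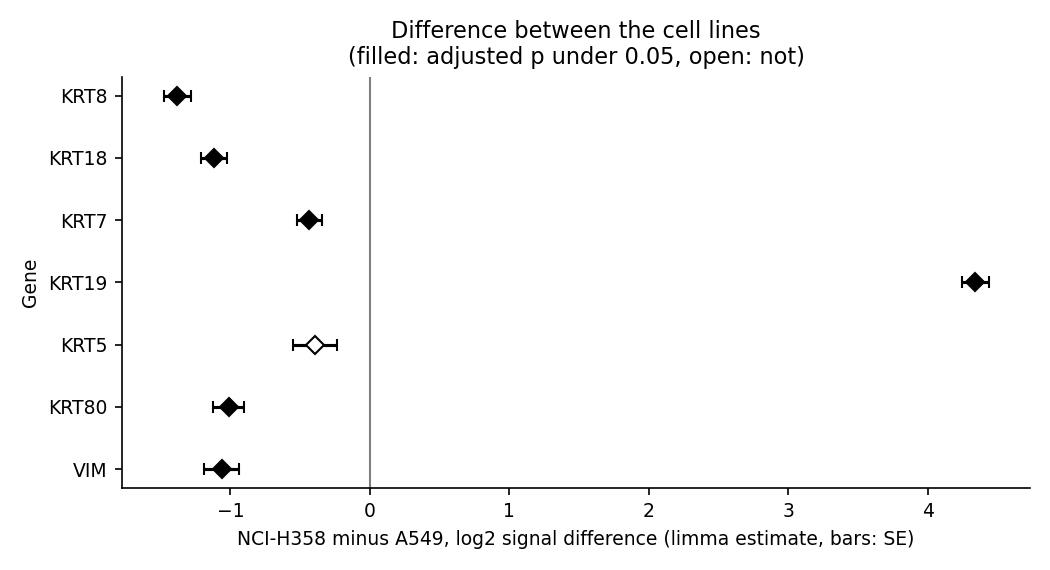
Fitted log2 signal difference, NCI-H358 minus A549, of the 7 measured members with the SE from limma (2 arrays a line). KRT19 stands at 4.34, and the other 6 lie between -1.38 and -0.39, of which KRT5 (open symbol) did not pass an adjusted p of 0.05.

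With no filter on dim genes, KRT19 kept its call (limma adjusted p = 0.0401), but 5 other members lost theirs. Their adjusted p-values were 0.0786 for KRT8, 0.0691 for KRT18, 0.108 for KRT7, 0.127 for KRT80 and 0.152 for VIM. The differences themselves were unaltered by the filter. That setting called 1905 of all genes in place of 7909, and of 61 genes called on the lists described here it called 19. Those 19 were INA, NEFL, NES, EPPK1, TRADD, KLF4, GRHL2, OVOL2, EHF, ZEB1, SNAI2, JUN, LAMB3, S100A2, NKX2-1, CLDN4, ESRP1, ST14 and ACTA2, and the other 42 were not called without the filter.

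Position added a further description. Keratin genes lie in 2 clusters, which in RefSeq hold 27 keratin genes on chromosome 12 (the type II genes and KRT18) and 28 on chromosome 17 (type I genes), with VIM apart on chromosome 10. KRT8 and KRT18 are neighbouring keratin genes at the end of the chromosome 12 cluster, and KRT80 and KRT7 are neighbours at its other end. Of the chromosome 12 keratin genes, 7 passed the filter, all with a lower signal in NCI-H358, and 6 of them passed the test. These 7 were the 5 members located there together with KRT4, a mucosal keratin, and KRT83, a hair keratin, and KRT5 was the gene that did not pass. The count thus mostly repeats the members described above. Over all 12271 genes tested, 5903 had a lower signal in NCI-H358, and 30.6% were called lower. On chromosome 17 the measured genes were KRT19, higher in NCI-H358, and KRT10, a suprabasal epidermal keratin with a small difference the other way (log2 -0.36, SE 0.0887, limma adjusted p = 0.022).

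Over all other keratins, few were measured. Of 25 other type I genes listed, 20 had a probe set and 1 passed the filter, and of 21 other type II genes, 16 had a probe set and 2 passed. KRT4 gave 100.2 with CHST11 and 70.44 with the empty vector in NCI-H358, against 145.5 and 156.9 in A549, lower in NCI-H358 by log2 -0.85 (SE 0.169, limma adjusted p = 0.011). KRT83 had a difference of -0.37 (SE 0.0875, limma adjusted p = 0.0185) at signals between 29.7 and 46.35. KRT15, the other basal type I keratin with a probe set, and KRT13, KRT16 and KRT20 did not reach the filter on any array. KRT17, KRT6A and KRT86 had no single-gene probe set and were not analysed here.

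The vector comparison within each line rested on 1 array a group and had no test. Log2 ratios of different probe sets of a gene, used as a gauge of measurement scatter, had an SD of 0.173 in NCI-H358 and 0.158 in A549. These probe sets were read on the same arrays, so the gauge leaves out the spread between separate cultures. A ratio beyond the gauge need not exceed that spread. At least 1.5-fold between the vectors were 1.17% of 11395 genes in NCI-H358 and 1.21% of 11448 in A549, and 0 of the 7 measured members reached that size in either line. The simple keratins had ratios within the gauge of their line: KRT8 had log2 ratios of -0.16 in NCI-H358 and 0.03 in A549, KRT18 -0.10 and 0.02, KRT7 -0.04 and 0.06, and KRT19 0.05 and -0.10. As low as KRT8 or lower lay 14.8% of genes in NCI-H358. KRT8 in A549 had -0.0024 under quantile normalization, and KRT7 in NCI-H358 had 0.02 with the median of its probe sets, so these signs were not settled.

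VIM had the lowest ratio of the measured members in NCI-H358. Its signals of 2322 with CHST11 and 3019 with the empty vector gave a log2 ratio of -0.38, 1.3-fold lower with CHST11, and 1.79% of the genes measured in that line lay as low or lower. In A549 the signals of 5545 with CHST11 and 5517 with the empty vector gave a log2 ratio of 0.01, so that 1 line showed a gap beyond the gauge and the other none. The difference between the lines was not tested. With the median of the VIM probe sets, of which 1 lay at the floor, the NCI-H358 ratio was -0.19.

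KRT5 and KRT80 had the other ratios beyond the gauge. KRT5 was at 30.02 with CHST11 and 26.29 with the empty vector in NCI-H358 (log2 0.19), and at 32.55 with CHST11 and 41.92 with the empty vector in A549 (log2 -0.37), at signals close to the filter. KRT80 was at 369.8 with CHST11 and 319.5 with the empty vector in NCI-H358 (log2 0.21), and at 674.4 with CHST11 and 711.6 with the empty vector in A549 (log2 -0.08). The SD of the ratio over all genes was 0.195 in NCI-H358 and 0.18 in A549. In NCI-H358, 13.4% of genes lay as high as KRT80 or higher and 15.5% as high as KRT5 or higher, and in A549 2.65% lay as low as KRT5 or lower. The KRT8 share of 14.8% in NCI-H358 lay between those of KRT80 and KRT5 there, so by rank KRT8 did not stand apart from them.

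Taking the lines as 2 replicates of the vector contrast, 0 of 12271 genes passed in limma (0% of genes tested), with 374 (3.05%) at an unadjusted p under 0.05. CHST11 itself did not pass (log2 1.84, SE 0.218, limma unadjusted p = 0.000611), so a lack of calls in this fit does not show a lack of difference. The members' fitted log2 differences lay between -0.19 for VIM (SE 0.126, limma unadjusted p = 0.205) and 0.07 for KRT80 (SE 0.11, limma unadjusted p = 0.573), and each had an adjusted p of 1.

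**Figure D3:**
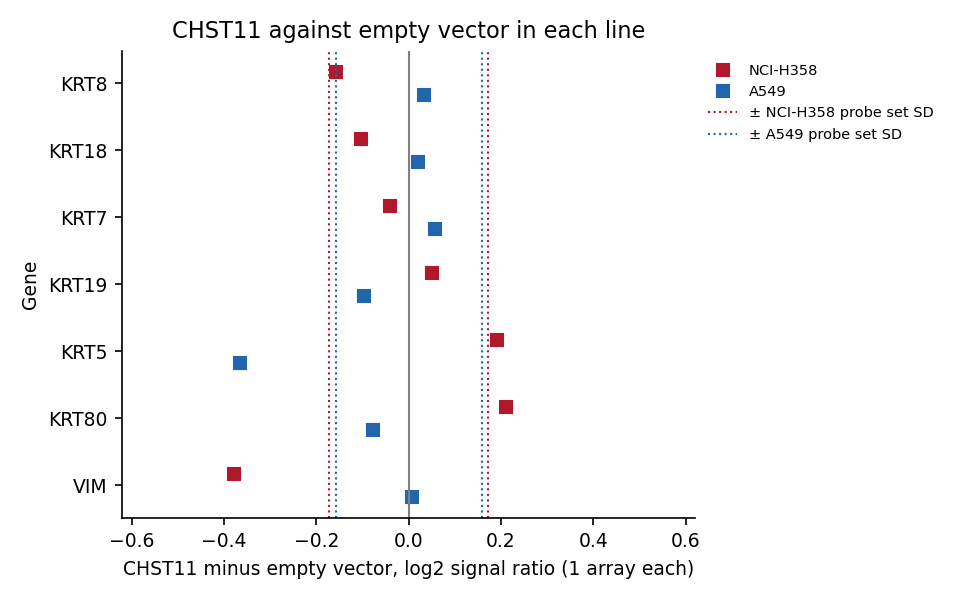
Log2 signal ratio, CHST11 minus empty vector, of the 7 measured members in NCI-H358 (red) and A549 (blue), 1 array a group, with dotted lines at plus and minus the SD between probe sets of a gene (0.173 and 0.158). VIM in NCI-H358 (-0.38) and KRT5 in A549 (-0.37) lie farthest from 0, and VIM in A549 lies at 0.01.

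VIM and KRT5 had the lowest ratios in NCI-H358 and in A549, and the 250 bases before their starts are shown for that reason, from RefSeq (GRCh38.p14). The VIM window is chr10:17227991-17228240 on the plus strand and the KRT5 window chr12:52520395-52520644 on the minus strand. Capitals mark a GC box (GGGCGG or CCGCCC), the element bound by SP1, and an E-box (CAGGTG or CACCTG), the element bound by the ZEB and SNAI repressors.
VIM: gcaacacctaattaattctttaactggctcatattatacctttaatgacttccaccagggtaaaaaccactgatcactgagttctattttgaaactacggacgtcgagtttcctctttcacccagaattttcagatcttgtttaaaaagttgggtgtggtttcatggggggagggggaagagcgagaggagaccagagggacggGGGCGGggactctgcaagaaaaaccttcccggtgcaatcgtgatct
KRT5: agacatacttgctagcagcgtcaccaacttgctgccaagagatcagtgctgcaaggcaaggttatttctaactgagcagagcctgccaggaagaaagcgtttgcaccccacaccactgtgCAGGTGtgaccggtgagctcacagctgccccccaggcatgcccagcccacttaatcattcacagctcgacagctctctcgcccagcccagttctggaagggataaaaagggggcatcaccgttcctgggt
On either strand the VIM window holds 1 GC box, 46 bases before the start, and 0 of these E-boxes, and the KRT5 window holds 1 E-box, 130 bases before the start, and 0 GC boxes. Neither window holds the TATA box letters TATAAA or TTTATA. Of 35116 windows of the same length, 42.6% hold a GC box, 17.5% the E-box and 10.7% the TATA letters. The third entry, of KRT8, begins at a transcript start inside the span of the gene and is not printed. The part of these elements in the vector ratios was not tested.

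Genes whose proteins act on keratin and vimentin genes differed widely between the lines. Of 19 listed transcription factors, 16 passed the filter. Of these, 9 were called higher and 5 lower in NCI-H358, beside 33.9% of all genes called higher and 30.6% called lower. The median log2 difference was 1.17 against 0.03 over all genes tested. GRHL1, GRHL2, OVOL1, OVOL2, SNAI1 and SNAI2 passed the filter only through NCI-H358, and ZEB1, TWIST1 and TWIST2 only through A549. The direction of those genes was largely set by the filter. GRHL2 and OVOL2, factors that maintain the epithelial state, gave 227.5 and 237.9 and 160 and 150.8 in NCI-H358 (CHST11 first in each pair), against 17.66 and 14.47 and 16.73 and 13.63 in A549. As the A549 signals lay under the filter, the differences are given as at least 8.61-fold for GRHL2 (limma adjusted p = 4.13e-05) and at least 5.75-fold for OVOL2 (limma adjusted p = 4.46e-05), higher in NCI-H358. KLF4, an epithelial differentiation factor, was 5.97-fold higher in NCI-H358 (limma adjusted p = 8.12e-05).

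The factors known to repress epithelial genes did not move as 1 group. ZEB1, a repressor of E-cadherin, gave 14.17 and 17.72 in NCI-H358 and 126.9 on both arrays in A549, at least 4.7-fold lower in NCI-H358 (limma adjusted p = 6.5e-05). TWIST1 and TWIST2, which act in the same way, were at least 2.5-fold and at least 2.86-fold lower there (limma adjusted p = 0.000161 and 0.000153). SNAI2, a repressor of the same kind, ran the other way, at 831.3 and 852.7 in NCI-H358 against 21.6 and 17.61 in A549, at least 31.2-fold higher in NCI-H358 (limma adjusted p = 3.09e-05). SNAI1 was higher in NCI-H358 too, at 38.26 and 30.05 against 18.55 and 19.87 (at least 1.26-fold, limma adjusted p = 0.00615). The AP-1 subunits FOSL1 and JUN were 10.02-fold and 2.87-fold higher in NCI-H358 (limma adjusted p = 8.61e-05 and 0.000268), and ELF3, an epithelial ETS factor, was 2.79-fold lower there (limma adjusted p = 0.00101).

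Of 7 measured general epithelial markers 6 passed, all higher in NCI-H358, with a median log2 difference of 3.43, beside 33.9% of all genes called higher. CLDN4, ESRP1 and ST14 passed the filter only through NCI-H358, so their direction was largely set by the filter. The A549 signals of CLDN4 and ESRP1 were raised to the floor, which leaves their spread in A549 out of the test. ESRP1, an epithelial splicing regulator, gave 832.1 and 822.5 in NCI-H358 against 11.83 and 12.69 in A549, at least 30.6-fold higher (limma adjusted p = 2.62e-05). EPCAM, an adhesion molecule, gave 5599 and 4684 in NCI-H358 against 123 and 209.8 in A549, and CDH1, E-cadherin, 4243 and 3506 against 833.2 and 810.5. CLDN4, a tight junction claudin, was at least 9.88-fold higher in NCI-H358 (limma adjusted p = 3.09e-05). KRT19 and these markers were thus high on the NCI-H358 arrays, whereas KRT8, KRT18, KRT7 and KRT80 were lower on them. MUC1, a surface mucin, did not pass, with a difference of 0.06 (SE 0.0873, limma adjusted p = 0.551).

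Linkers that tie filaments to junctions and to other parts of the cell were mostly higher in NCI-H358. Of 14 listed, 13 passed the filter, and 10 were higher and 0 lower, with a median log2 difference of 0.56, beside 33.9% of all genes called higher and 30.6% called lower. PPL, periplakin, gave 254.7 and 228.6 in NCI-H358 against 43.59 and 45.9 in A549, 5.4-fold higher (limma adjusted p = 0.000122), and PLEC, plectin, was 2.62-fold higher (limma adjusted p = 0.00103). EPPK1, epiplakin, which binds keratin and vimentin, was at least 3.77-fold higher (limma adjusted p = 6.99e-05). DSP, desmoplakin, which anchors keratins at desmosomes, gave 426.4 with CHST11 and 265 with the empty vector in NCI-H358, against 481.4 with CHST11 and 610.4 with the empty vector in A549, and did not pass (limma adjusted p = 0.0708).

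Between the vectors, with 1 array a group and no test, the linkers gave the following ratios. In NCI-H358 the median log2 ratio of 13 linkers was 0.11, with 9 above 0 and 1 at least 1.5-fold higher, DSP at 0.69, beside 0.895% of all genes at least that much higher. In A549 the median of 12 was -0.21, with 12 below 0 and 2 at least 1.5-fold lower, DST at -0.65 and MACF1 at -0.59, beside 0.716% of all genes at least that much lower. The linker medians stayed between 0.09 and 0.15 in NCI-H358 and between -0.23 and -0.19 in A549 under the other scalings, with 11 below 0 in A549 under median centring. The difference between the lines was not tested. Over all genes the medians were 0.00 in NCI-H358 and 0.01 in A549, with 5773 of 11395 ratios above 0 in NCI-H358 and 5183 of 11448 below 0 in A549. The linkers were read on the same arrays, so their ratios are not separate observations of the vector. DST, MACF1, DSP and PLEC (-0.54 in A549) have long mRNAs, and the part of mRNA length in these ratios was not tested.

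**Figure D4:**
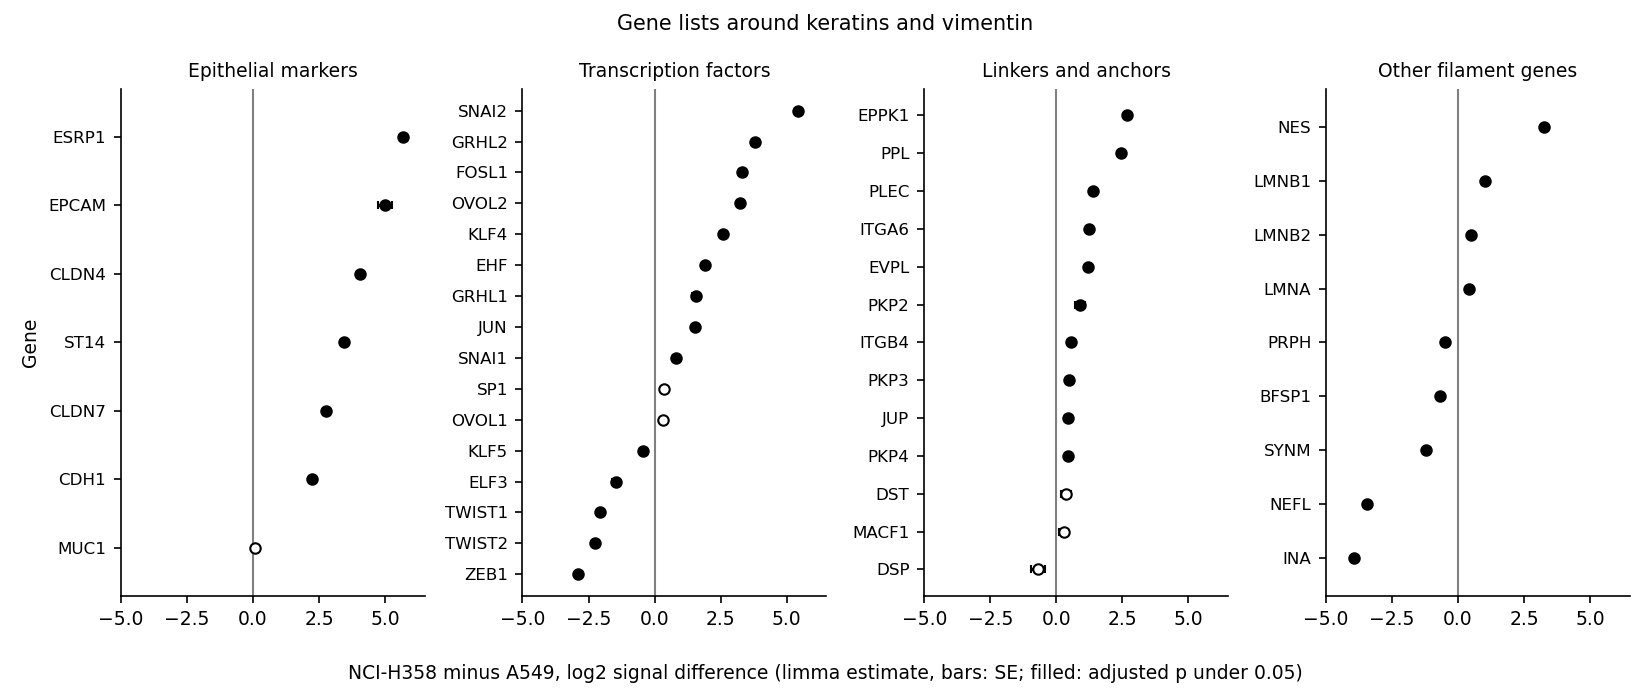
Fitted log2 signal difference, NCI-H358 minus A549, with the SE from limma, of the measured genes in 4 lists: 7 epithelial markers, 16 transcription factors, 13 linkers and anchors, and 9 other intermediate filament genes (filled symbols passed an adjusted p of 0.05). ESRP1 and SNAI2 stand highest and ZEB1, NEFL and INA among the lowest.

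Among 14 other intermediate filament genes 9 passed the filter, 4 higher and 5 lower in NCI-H358, beside 33.9% of all genes called higher and 30.6% called lower. The nuclear lamins were higher, by log2 1.04 for LMNB1 (SE 0.0919, limma adjusted p = 0.000893), 0.49 for LMNB2 (SE 0.0956, limma adjusted p = 0.01) and 0.40 for LMNA (SE 0.104, limma adjusted p = 0.0256). NES, nestin, which copolymerises with vimentin, gave 188.6 and 194.4 in NCI-H358 against 20.46 and 19.31 in A549, at least 7.09-fold higher (limma adjusted p = 4.93e-05), while VIM was lower there. SYNM, synemin, another partner of vimentin, was 2.32-fold lower in NCI-H358 (limma adjusted p = 0.000555). The neuronal filament genes INA, internexin, and NEFL, the neurofilament light chain, lay under the filter in NCI-H358, against 268 and 304 for INA and 167.1 and 181.4 for NEFL in A549, at least 10.6-fold and at least 6.45-fold lower in NCI-H358 (limma adjusted p = 3.09e-05 and 4.37e-05). The 3 measured NEFL probe sets ran from log2 -3.82 to -0.52, and 2 of them were called lower in a fit over probe sets. DES and GFAP, the muscle and glial filament genes, did not reach the filter.

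Among keratin and vimentin binding proteins, of 9 measured genes 2 were called higher and 2 lower in NCI-H358, and the median difference was 0.06. The shares over all genes tested were 33.9% called higher and 30.6% called lower. HSPB1, a small heat shock protein that binds filaments, had -0.18 (SE 0.0873, limma adjusted p = 0.135), and FAM83H, a keratin-associated protein, was 1.61-fold higher (limma adjusted p = 0.00507). PNN, pinin, was 1.3-fold higher (limma adjusted p = 0.0275), and TRADD, a death receptor adaptor that binds KRT18, was 1.56-fold lower (limma adjusted p = 0.00325). TGM2, a transglutaminase, was 2.4-fold lower by its brightest probe set (limma adjusted p = 0.00105), although its 3 measured probe sets ran from -1.26 to 0.27. Of the 78 measured genes on the lists, 30 had at least 2 measured probe sets, and in 26 these had the same sign between the lines. MACF1, TGM2, EHF and SFTPC were the other 4. Probe sets of the same sign could still differ in size, from log2 -2.91 to -1.08 for ZEB1 and from 1.27 to 2.66 for EPPK1.

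Markers of basal cells, which carry KRT5 and KRT14, were higher in NCI-H358 where measured. Of 13 basal markers 8 had a probe set, and the 5 above the filter, ITGA6, ITGB4, LAMB3, S100A2 and SOX2, were all higher in NCI-H358, the line in which KRT5 was no higher. Over all genes tested, 33.9% were called higher and 30.6% lower in NCI-H358. ITGA6 and ITGB4 were also counted among the linkers above. LAMB3, a laminin chain of basement membrane, gave 839.7 and 1006 in NCI-H358 against 72.4 and 99.12 in A549 (10.9-fold, limma adjusted p = 5e-05), and S100A2 gave 1068 and 873.7 against 121.8 and 113.1 (8.23-fold, limma adjusted p = 6.5e-05). KRT15, NGFR and DSG3 did not reach the filter, and TP63 was not analysed here. Of 9 cornified envelope genes with a probe set, 3 passed the filter, and CSTA, cystatin A, and CNFN, cornifelin, were lower in NCI-H358.

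Markers of other cells were checked because vimentin is also the filament of fibroblasts, endothelium, leukocytes and mesothelium. Their counts stand beside 33.9% of all genes called higher and 30.6% called lower in NCI-H358. Of 10 fibroblast markers 3 passed the filter, 0 higher and 2 lower in NCI-H358, and their summed signals were 278.5 and 293.1 in NCI-H358 and 380.8 and 389.7 in A549. COL1A2, COL3A1, PDGFRA, PDGFRB, LUM, DCN and POSTN did not reach the filter on any array, and ACTA2, smooth muscle actin, was at least 4.44-fold lower in NCI-H358 (limma adjusted p = 0.000106), as was THY1, a surface glycoprotein, by at least 1.37-fold (limma adjusted p = 0.0149). Of 6 endothelial markers 1 passed the filter, with summed signals of 92.27 and 96.49 in NCI-H358 and 88.39 and 88.96 in A549. Of 7 leukocyte markers with a probe set 3 passed, with sums of 132.9 and 149.5 and of 127.1 and 118, and PTPRC, CD3D, MS4A1 and TYROBP did not reach the filter. LAPTM5, a lysosomal protein, was at least 2.38-fold higher in NCI-H358 (limma adjusted p = 0.000298) and CD14, a lipopolysaccharide receptor, at least 1.19-fold lower (limma adjusted p = 0.0102). The 3 measured of 4 mesothelial markers were lower in NCI-H358, with sums of 31.18 and 40.4 against 240.9 and 255.9, and WT1, a transcription factor of mesothelium, lay under the floor in NCI-H358, against 127.5 and 145.5 in A549 (at least 5.04-fold lower in NCI-H358, limma adjusted p = 6.5e-05). UPK3B, a uroplakin, was at least 2.94-fold lower (limma adjusted p = 0.000121) and CALB2, calretinin, at least 1.07-fold lower (limma adjusted p = 0.0045). VIM moved in the same direction as ACTA2, THY1 and the 3 measured mesothelial markers, and their part in it was not tested. Those markers passed the filter only through A549, so they could hardly be called higher in NCI-H358. COL1A1, a collagen chain and the brightest measured fibroblast marker, did not differ. It gave 161.1 and 170.2 in NCI-H358 against 152.5 and 165.4 in A549 (log2 0.06, limma adjusted p = 0.576). MSLN, mesothelin, did not reach the filter on any array.

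As to the lung origin of the lines, of 8 alveolar markers with a probe set 5 passed the filter. Of these, 2 were called higher and 1 lower in NCI-H358, beside 33.9% of all genes called higher and 30.6% called lower. NKX2-1, the transcription factor of lung epithelium, gave 263.9 and 247.4 in NCI-H358 by its brightest probe set and lay under the floor in A549 (at least 9.46-fold higher in NCI-H358, limma adjusted p = 3.09e-05), and LAMP3, a lysosomal membrane protein, was at least 4.87-fold higher in NCI-H358 (limma adjusted p = 6.87e-05). The 2 measured NKX2-1 probe sets differed in size, with log2 differences of 0.59 and 3.98, both called higher in a fit over probe sets. ABCA3, the lipid transporter of surfactant-making cells, went the other way, at 37.84 and 18.59 in NCI-H358 against 115.6 and 108.3 in A549 (log2 -2.08, SE 0.235, limma adjusted p = 0.00183). The surfactant gene SFTPC lay between 45.93 and 51.15 on the 4 arrays, with no difference that passed (limma adjusted p = 0.906), and NAPSA and AGER did not reach the filter.

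By Euclidean distance between log2 signals over the 4 arrays, each centred on its own mean, the gene nearest to KRT80 was TFAP2A, an epithelial transcription factor (distance 0.0118), with 235.8 and 202.8 in NCI-H358 and 426.2 and 454.4 in A549. The nearest to KRT18 were SAAL1 (0.0186) and GARS1, glycyl-tRNA synthetase (0.0312), and the nearest to KRT7 were CDIPT, a phosphatidylinositol synthase (0.019), and TMEM50B (0.021). For KRT8 the nearest was GPNMB, a membrane glycoprotein (0.0203), at 16.43 and 18.19 in NCI-H358, under the filter, and 46.19 and 44.36 in A549. For KRT5 the nearest was ENTPD7 (0.0269). VIM was nearest to NPTX1, a neuronal pentraxin (0.056), at 19.17 and 24.52 in NCI-H358 and 43.43 and 44.95 in A549. KRT19 had no neighbour so close, the nearest being COL8A1, a collagen chain (0.0809), which lay under the floor in A549. With 4 arrays of 2 lines such likeness mostly reflects the size of the line difference.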

How the data were processed

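Gene expression was measured on 1 Affymetrix array in each of 4 groups, and groups were taken from the sample labels. The deposited values are signal intensities on a linear scale, from 2.462 to 15500, made with MAS5 per the submitters' processing notes; the sources used here give no software version, scaling target or detection calls, and any further step by the authors is unknown. Such a step could compress differences of dim genes. No array was left out. The number of arrays limits the precision.

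Of 54675 probe sets, 41091 had 1 gene symbol in the platform annotation, 1801 had several, 11721 had none and 62 were controls; by Entrez ID 99.9% of the first matched RefSeq, and 0 symbols changed. For each of 19775 genes, the brightest single-gene probe set (mean log2 over the arrays) stood for the gene. Values were floored at 16.14 (50th percentile), and genes with a signal of at least 27 (60th percentile) on 1 array were kept. A gene kept through 1 line only could hardly be called lower in that line. Line and vector terms were fitted together with limma 3.58.1 in R 4.3.3 (lmFit, eBayes, Benjamini-Hochberg adjustment over 12271 genes, prior degrees of freedom 3.5), and the fit was checked on simulated data. Where the dimmer line lay under the filter, its arrays were raised to 27, which makes the printed fold a lower bound ("at least") for the probe set that stood for the gene. Other probe sets of a gene could differ less. Within a line, ratios were called by size at 1.5-fold. Figures were made with Python 3.11.15 and matplotlib 3.10.9.

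The members and the gene lists were chosen with earlier results of these data known. The rule for named genes took all members, CHST11, the genes of 4 lists that passed the filter, the 3 highest and 3 lowest called genes of each other list, and the 2 nearest genes of each member; not all of these are printed in the text, and the plot of the 4 lists shows theirs. Other genes under the filter are named as list members. Alternatives were other scalings, floors and filters, the median of probe sets, eBayes with a trend and a fit over probe sets.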

Additional observations from a re-analysis of the deposited data

Results flagged for a closer look

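KRT5 had ratios of opposite sign in the lines, both beyond the SD between probe sets of a gene: log2 0.19 with CHST11 in NCI-H358 and -0.37 in A549, a gap of 0.56 between the lines. The difference was not tested, since each value rests on 1 array a group, and the KRT5 signals lay between 26.29 and 41.92, close to the filter of 27.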

How the results depend on the processing

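Quantile normalization, median centring, cyclic loess, both lower floors, the filter at the 75th percentile and eBayes with a trend left all 6 member calls between the lines in place. KRT19 was called higher in NCI-H358 under all 10 settings with a test, and its log2 difference ran from 2.17 (median of probe sets, of which 1 lay at the floor) to 4.42 (CHST11 arrays alone). KRT7 lost its call with the median of probe sets. Without a filter, 1905 genes were called in place of 7909, 937 of them lower in NCI-H358, and 0 members were called lower in place of 5; the cause was not tested. The fit over probe sets called 13487 probe sets, 6417 lower, because more features were tested. The shared vector fit called 0 under every setting. Genes at least 1.5-fold apart between the vectors numbered 133 in NCI-H358 and 138 in A549. With the filter at the 75th percentile, which tests fewer genes, there were 44 and 57, and with the median of probe sets 82 and 75. Of 110 vector ratios of members under alternatives, 109 stayed within the probe set SD of the reported value, the exception being VIM in NCI-H358 (-0.19) when probe sets were summarised by their median. The brightest probe sets of the measured members lay above the floor on all 4 arrays. The floor and filter settings therefore could not alter these ratios, and only the other alternatives bear on how steady they were. KRT8 in A549 ran from -0.0024 to 0.05, VIM in A549 from -0.02 to 0.03 and KRT7 in NCI-H358 from -0.08 to 0.02, so these signs are not settled. The shared fit pairs the vectors within each line through its cell line term. No paired analysis by replicate number was possible because each group had 1 array and the labels carry no such numbers. Signals near the filter, such as those of KRT5, limit what can be read from them, as no detection calls were used here.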
